A study of Homo sapiens with 12 samples.

Results

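Levels of 10 genes of the YAP, TAZ and TEAD system were followed in RNA sequencing libraries of human neuroblastoma cells. The genes were taken by symbol from the deposited expression table of 58735 genes: YAP1 and WWTR1 (the gene of TAZ), TEAD1, TEAD2 and TEAD3, and the targets CYR61, CTGF, ANKRD1, AMOTL2 and LATS2. CYR61 and CTGF are the older symbols of CCN1 and CCN2. All 10 were found and all 10 passed the filter on low values, a mean of at least 0.5 FPKM over all libraries. FPKM is the number of sequenced fragments per kilobase of gene, scaled for depth. It corrects for the annotated length of the gene, not of the transcript forms expressed, so comparisons between different genes are approximate. The study examined knockdown of TSPYL5, which encodes a protein of the TSPY and NAP family, in 2 lines derived from tumours of the sympathetic nervous system. There were 12 libraries in 4 groups of 3. SK_N_SH_shNC (genotype given as WT) and SK_N_SH_shL5 (genotype given as TSPYL5 knockdown) carry the cell line label SK-N-SH. SK_N_BE2_shNC (WT) and SK_N_BE2_shL5 (TSPYL5 knockdown) are titled SK_N_BE2 but carry the cell line label SH-SY5Y, a subline of SK-N-SH. Treatment is given as None in all 4 groups. Nothing in the labels says whether the 3 libraries of a group came from separate cultures, so the p-values measure the spread between these libraries, which may be technical.

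YAP and TAZ are closely related transcriptional coactivators with no DNA-binding domain of their own. They reach DNA through the TEAD proteins, which recognise the short motif CATTCC. The Hippo kinase cascade ends in the kinases LATS1 and LATS2, which phosphorylate YAP and TAZ and so keep them out of the nucleus. CYR61, CTGF and ANKRD1 are the transcripts most often read as a measure of YAP and TAZ activity, and AMOTL2 and LATS2 are targets that feed back on the pathway as inhibitors. In neuroblastoma, high YAP and TAZ activity is a known mark of the mesenchymal cell state, as opposed to the noradrenergic one. The data hold transcript levels only, and phosphorylation and location of the proteins were not measured.

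The libraries held 15425460 to 19249018 reads recovered from the FPKM values. TSPYL5 itself, the targeted gene, went against the genotype label in one line. It stood at 13.1, 13.4 and 12.2 FPKM in the libraries labelled SK_N_SH_shNC and at 17.1, 18.3 and 17.8 in those labelled SK_N_SH_shL5. In the libraries labelled SK_N_BE2_shNC it stood at 24.0, 24.4 and 25.8 FPKM, and in those labelled SK_N_BE2_shL5 at 13.3, 12.4 and 12.6. It was thus higher in the knockdown-labelled libraries of SK_N_SH (log2 difference 0.43, SE 0.05, adjusted p = 7.45e-06, limma) and lower in those of SK_N_BE2 (log2 difference -0.90, SE 0.05, adjusted p = 9.86e-09). The libraries also paired across lines. Pearson's r across 15856 genes was 0.960 to 0.975 between SK_N_SH_shNC and SK_N_BE2_shL5 libraries and 0.986 to 0.987 between SK_N_SH_shL5 and SK_N_BE2_shNC libraries, against 0.705 to 0.724 between shNC and shL5 libraries within SK_N_SH and 0.692 to 0.721 within SK_N_BE2. Group names below are therefore the names on the libraries, and every direction between a knockdown and a control group rests on those labels.

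YAP1 and WWTR1 were high in 2 groups and low in the other two, and the high groups carried different labels in the 2 lines. YAP1 (ENSG00000137693, chr11:102110461-102233423, plus strand; here and below GRCh38) stood at 28.5, 27.1 and 29.3 FPKM in the libraries labelled SK_N_SH_shNC and at 0.433, 0.411 and 0.526 in those labelled SK_N_SH_shL5. In those labelled SK_N_BE2_shL5 it stood at 24.0, 23.6 and 24.6 FPKM, and in those labelled SK_N_BE2_shNC at 0.325, 0.307 and 0.288. The 6 high libraries lay far above the 6 low ones, with no value between. Mean YAP1 was 28.3 ± 1.11 FPKM (SD, n = 3) in SK_N_SH_shNC and 0.457 ± 0.0613 in SK_N_SH_shL5, which is 61.9-fold lower. It was 24.1 ± 0.510 FPKM in SK_N_BE2_shL5 and 0.307 ± 0.0188 in SK_N_BE2_shNC, and so 78.6-fold higher in the knockdown-labelled group. On the scale of the test, log2(FPKM + 1), the differences were -4.33 (SE 0.05, adjusted p = 1.41e-14) and 4.26 (SE 0.05, adjusted p = 1.33e-14).

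WWTR1 (ENSG00000018408, chr3:149517235-149736714, minus strand) followed the same order of groups with a smaller range. Its values were 15.2, 14.1 and 14.2 FPKM in SK_N_SH_shNC and 1.61, 1.61 and 1.68 in SK_N_SH_shL5. They were 9.01, 9.64 and 9.66 FPKM in SK_N_BE2_shL5 and 1.09, 0.940 and 1.05 in SK_N_BE2_shNC. No 2 of the 4 groups overlapped for WWTR1. The group labelled SK_N_SH_shL5 was 8.88-fold lower than its control (log2 difference -2.56, SE 0.05, adjusted p = 1.26e-12) and the group labelled SK_N_BE2_shL5 was 9.20-fold higher than its control (2.36, SE 0.05, adjusted p = 2.20e-12).

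The pair also changed in composition, since YAP1 varied over a wider range than WWTR1. YAP1 and WWTR1 summed to 42.8 ± 1.37 FPKM in SK_N_SH_shNC and 33.5 ± 0.686 in SK_N_BE2_shL5, and to 2.09 ± 0.10 in SK_N_SH_shL5 and 1.33 ± 0.0850 in SK_N_BE2_shNC (SD, n = 3 libraries each). YAP1 made up 66.1% ± 1.07 of this sum in SK_N_SH_shNC and 71.9% ± 0.833 in SK_N_BE2_shL5, but 21.8% ± 1.84 in SK_N_SH_shL5 and 23.0% ± 1.54 in SK_N_BE2_shNC. WWTR1 was thus the more abundant transcript of the pair in the low groups and YAP1 in the high ones. These are bulk samples, in which fewer cells of a type and less RNA per cell cannot be told apart.

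The TEAD genes, which encode the DNA-binding partners, varied much less. TEAD1 (ENSG00000187079, chr11:12674591-12944483, plus strand) stood at 33.2, 31.5 and 34.9 FPKM in SK_N_SH_shNC and at 31.2, 31.1 and 32.4 in SK_N_BE2_shL5. It stood at 22.4, 19.9 and 19.3 FPKM in SK_N_SH_shL5 and at 20.7, 18.7 and 22.0 in SK_N_BE2_shNC. All 6 libraries with high YAP1 had more TEAD1 than all 6 with low YAP1, but the gap was small. TEAD1 was 1.62-fold lower in the group labelled SK_N_SH_shL5 than in its control (log2 difference -0.67, SE 0.07, adjusted p = 2.84e-06) and 1.54-fold higher in the group labelled SK_N_BE2_shL5 (0.60, SE 0.07, adjusted p = 7.05e-06).

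TEAD2 (ENSG00000074219, chr19:49340595-49362457, minus strand) was set apart in 1 group, SK_N_BE2_shNC. Its values there were 9.54, 9.94 and 9.50 FPKM, below all 9 other libraries, which ran from 13.6 to 18.4 FPKM. TEAD2 averaged 16.5 ± 0.837 FPKM in SK_N_SH_shNC, 14.5 ± 1.504 in SK_N_SH_shL5 and 15.7 ± 2.31 in SK_N_BE2_shL5 (SD, n = 3), and these 3 groups overlapped. It was 1.63-fold higher in the group labelled SK_N_BE2_shL5 than in its control (log2 difference 0.64, SE 0.09, adjusted p = 4.89e-05). In SK_N_SH the difference was -0.18 (SE 0.09) and did not pass (adjusted p = 0.0959).

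TEAD3 (ENSG00000007866, chr6:35473597-35497076, minus strand) was the lowest of the measured TEAD transcripts. It averaged 5.84 ± 0.499 FPKM in SK_N_SH_shNC, 5.36 ± 0.286 in SK_N_SH_shL5, 6.49 ± 0.201 in SK_N_BE2_shL5 and 4.24 ± 0.242 in SK_N_BE2_shNC. As with TEAD2, the SK_N_BE2_shNC libraries, at 4.36, 3.96 and 4.40 FPKM, lay below all the others. The group labelled SK_N_BE2_shL5 was 1.53-fold higher than its control (log2 difference 0.52, SE 0.06, adjusted p = 1.05e-05), and the SK_N_SH difference of -0.10 (SE 0.06) did not pass (adjusted p = 0.147). TEAD4, the remaining gene of the family, averaged 8.42 ± 0.812, 10.3 ± 1.245, 11.2 ± 0.866 and 9.72 ± 0.472 FPKM in SK_N_SH_shNC, SK_N_SH_shL5, SK_N_BE2_shL5 and SK_N_BE2_shNC. All 4 TEAD transcripts together summed to 64.0 ± 2.02 FPKM in SK_N_SH_shNC, 65.0 ± 1.09 in SK_N_BE2_shL5, 50.7 ± 1.77 in SK_N_SH_shL5 and 44.1 ± 1.22 in SK_N_BE2_shNC. TEAD1 was the most abundant of the 4 in every group, at 40.5% to 51.9% of the sum on average.

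**Figure D1:**
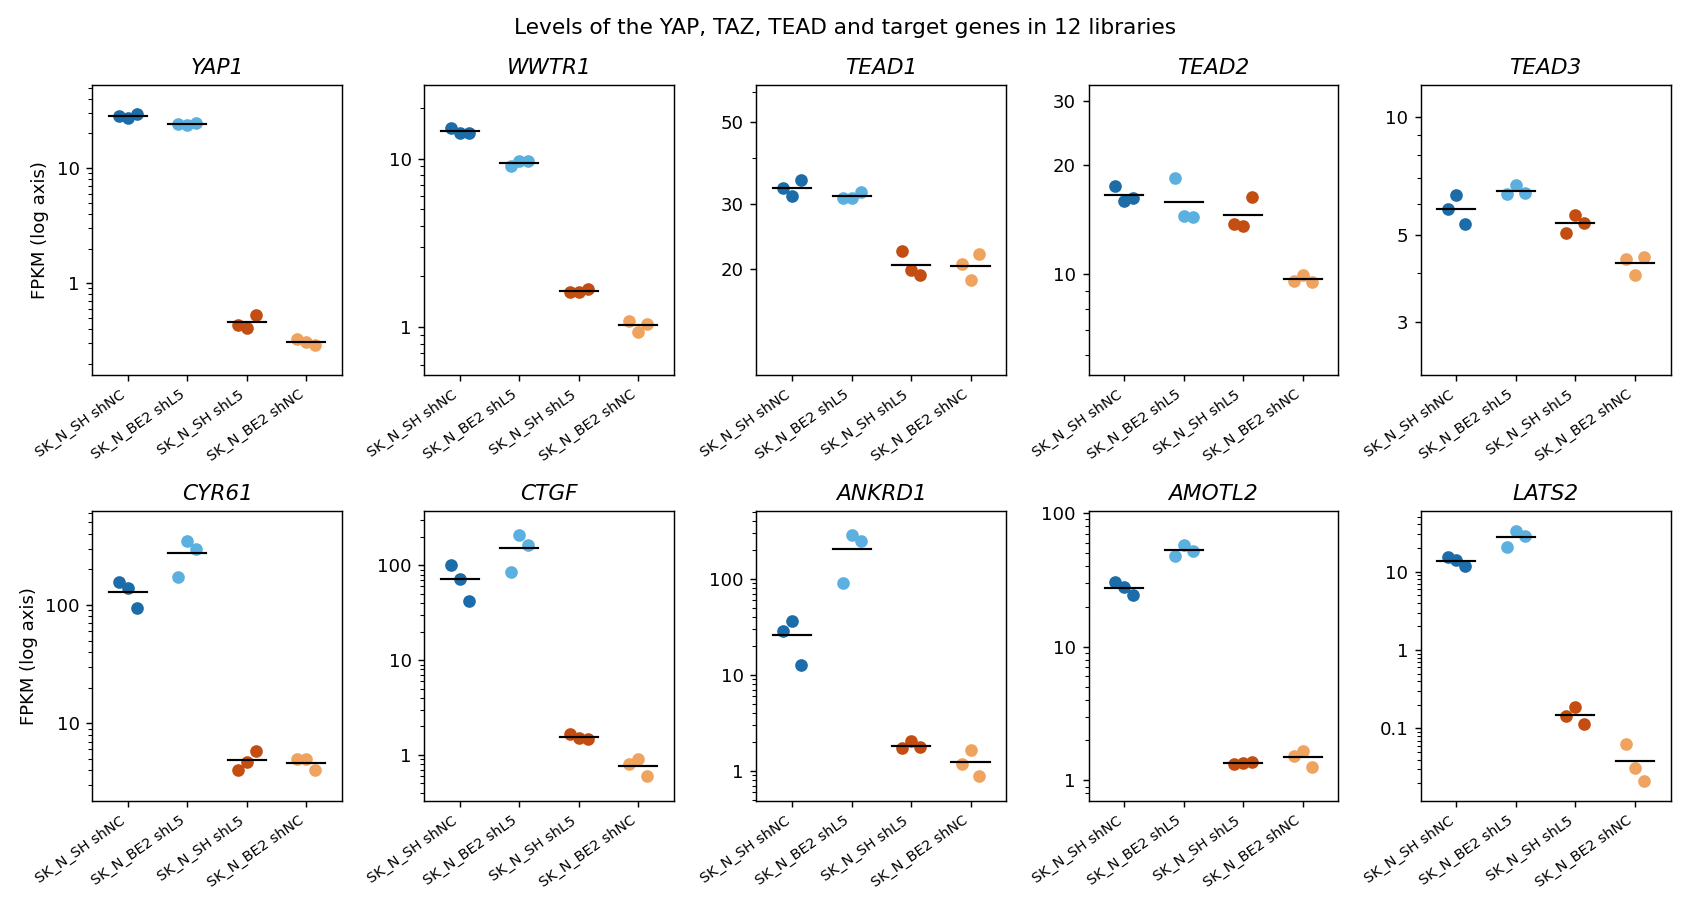
FPKM (log axis, scaled separately for each gene) of the 10 genes in each of the 12 libraries, one panel per gene; points are libraries and lines are group means, with 3 libraries per group. YAP1, WWTR1 and the 5 targets fall into a high pair of groups (SK_N_SH_shNC and SK_N_BE2_shL5, blue) and a low pair (SK_N_SH_shL5 and SK_N_BE2_shNC, orange), while the TEAD genes span a narrow range.

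CYR61, CTGF and ANKRD1 are shown with promoter sequence where a RefSeq entry was matched (8 of the 10 genes matched, not CYR61 or TEAD1), because TEAD proteins bind CATTCC and these genes are the usual readouts. CATTCC, or GGAATG as the same motif reads on the other strand, was searched in the 250 bases before each RefSeq start site (GRCh38.p14). The CTGF window held 3 matches, starting 169, 104 and 95 bases before the start site, and the ANKRD1 window held 2, starting 220 and 128 bases before it. Among 35116 windows of the same length over all genes, 11.9% held at least 1 match, 0.940% at least 2 and 0.0826% at least 3. The windows of LATS2, WWTR1, TEAD2 and TEAD3 held none, that of YAP1 held 1, and of the 2 AMOTL2 windows 1 held a match. The AP-1 motif TGANTCA was in the ANKRD1 window once and in no other window of the matched genes, against 6.57% of all windows. A match is a description of letters, and binding was not measured. The CTGF stretch below is chr6:131951374-131951622, the ANKRD1 stretch is the 61 bases of the window that lie outside an annotated exon, chr10:90921277-90921337, with 1 of its matches, and the LATS2 stretch, shown as a target without a match, is chr13:21061587-21061836. All are on the minus strand and are printed 5′ to 3′, with the matches in capitals.
CTGF: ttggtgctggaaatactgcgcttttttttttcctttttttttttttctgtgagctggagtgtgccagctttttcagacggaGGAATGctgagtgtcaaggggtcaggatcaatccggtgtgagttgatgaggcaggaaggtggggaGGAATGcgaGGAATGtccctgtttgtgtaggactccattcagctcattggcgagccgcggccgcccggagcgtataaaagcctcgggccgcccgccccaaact
ANKRD1: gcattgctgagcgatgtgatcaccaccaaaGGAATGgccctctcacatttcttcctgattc
LATS2: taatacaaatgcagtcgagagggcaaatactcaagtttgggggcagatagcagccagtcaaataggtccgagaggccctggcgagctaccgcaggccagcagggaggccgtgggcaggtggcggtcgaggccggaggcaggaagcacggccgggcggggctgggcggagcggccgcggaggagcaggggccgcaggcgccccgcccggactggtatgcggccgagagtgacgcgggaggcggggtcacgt

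CYR61 (ENSG00000142871, chr1:85580761-85583962, plus strand) encodes a secreted matrix protein of the CCN family. It stood at 157, 139 and 94.0 FPKM in SK_N_SH_shNC and at 4.05, 4.68 and 5.84 in SK_N_SH_shL5. In SK_N_BE2_shL5 it stood at 172, 349 and 299 FPKM, and in SK_N_BE2_shNC at 4.96, 4.99 and 3.98. Every high library lay above every low one, and the 3 SK_N_BE2_shL5 libraries lay above the 3 SK_N_SH_shNC libraries. CYR61 was 26.7-fold lower in the group labelled SK_N_SH_shL5 than in its control (log2 difference -4.46, SE 0.25, adjusted p = 1.21e-08) and 58.9-fold higher in the group labelled SK_N_BE2_shL5 (5.55, SE 0.25, adjusted p = 1.64e-09).

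CTGF (ENSG00000118523, chr6:131948176-131951373, minus strand) encodes another matricellular protein of the CCN family. It stood at 102, 72.5 and 42.6 FPKM in SK_N_SH_shNC and at 1.68, 1.52 and 1.47 in SK_N_SH_shL5. In SK_N_BE2_shL5 it stood at 85.4, 210.2 and 163 FPKM, and in SK_N_BE2_shNC at 0.8002, 0.901 and 0.593. The low groups did not overlap for CTGF, whereas the high groups did, because the first SK_N_BE2_shL5 library lay below the first SK_N_SH_shNC library. CTGF was 46.6-fold lower in the group labelled SK_N_SH_shL5 (log2 difference -4.76, SE 0.32, adjusted p = 6.77e-08) and 199.8-fold higher in the group labelled SK_N_BE2_shL5 (6.35, SE 0.32, adjusted p = 4.92e-09) than in the control of the same line.

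ANKRD1 (ENSG00000148677, chr10:90912096-90921276, minus strand) encodes an ankyrin repeat protein best known from heart and skeletal muscle. Replicates 1, 2 and 3 stood at 28.5, 36.3 and 12.8 FPKM in SK_N_SH_shNC, from 1052, 1358 and 474 reads. They stood at 1.72, 2.03 and 1.77 FPKM in SK_N_SH_shL5, from 60, 70 and 55 reads. In SK_N_BE2_shL5 they stood at 90.1, 287 and 247 FPKM, from 3212, 9585 and 8759 reads. In SK_N_BE2_shNC they stood at 1.18, 1.66 and 0.884 FPKM, from 40, 56 and 29 reads. Replicates of a high group thus differed by up to 3.18-fold among themselves, and yet no 2 groups overlapped; the low groups came closest, at 1.72 and 1.66 FPKM. ANKRD1 averaged 25.9 ± 11.96 FPKM (SD, n = 3) in SK_N_SH_shNC and 1.84 ± 0.168 in SK_N_SH_shL5, 14.05-fold lower in the group labelled as knockdown (log2 difference -3.13, SE 0.42, adjusted p = 2.85e-05). It averaged 208 ± 104 FPKM in SK_N_BE2_shL5 and 1.24 ± 0.390 in SK_N_BE2_shNC, 167-fold higher in the group labelled as knockdown (6.39, SE 0.42, adjusted p = 4.79e-08). Leaving out any 1 library kept the first fold between 11.2 and 17.6 and the second between 136 and 215. Genes that define muscle (MYH6, MYH7, TNNT2, ACTC1, MYOD1, DES) summed to at most 1.32 FPKM in any library, and MYH6 was at 0 in all 12.

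AMOTL2 (ENSG00000114019, chr3:134355874-134375479, minus strand) encodes an angiomotin-like protein that holds YAP at junctions and in the cytoplasm. It stood at 30.4, 28.0 and 24.4 FPKM in SK_N_SH_shNC and at 1.33, 1.34 and 1.38 in SK_N_SH_shL5. It stood at 47.5, 57.9 and 52.2 FPKM in SK_N_BE2_shL5 and at 1.52, 1.66 and 1.27 in SK_N_BE2_shNC. The high groups were separate from each other, and the low groups overlapped. AMOTL2 was 20.4-fold lower in the group labelled SK_N_SH_shL5 (log2 difference -3.60, SE 0.09, adjusted p = 1.16e-11) and 35.4-fold higher in the group labelled SK_N_BE2_shL5 (4.43, SE 0.09, adjusted p = 1.89e-12) than in the control of the same line.

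LATS2 (ENSG00000150457, chr13:20973032-21061547, minus strand), the Hippo kinase that is also a YAP and TAZ target, came nearest to the detection limit in the low groups. It stood at 15.2, 13.9 and 11.9 FPKM in SK_N_SH_shNC and at 20.5, 33.1 and 28.6 in SK_N_BE2_shL5. It stood at 0.143, 0.185 and 0.114 FPKM in SK_N_SH_shL5, from 14, 18 and 10 reads, and at 0.0629, 0.0315 and 0.0216 in SK_N_BE2_shNC, from 6, 3 and 2 reads. The ratio of SK_N_BE2_shL5 to SK_N_BE2_shNC, 8036 against 11 reads, was 701 with a 95% counting interval of 392 to 1406, which covers counting error only. LATS2 was lower in the group labelled SK_N_SH_shL5 by 92.5-fold in mean FPKM (log2 difference -3.67, SE 0.14, adjusted p = 4.04e-10) and higher in the group labelled SK_N_BE2_shL5 (4.75, SE 0.14, adjusted p = 4.01e-11). For a gene this low, the difference on the log2(FPKM + 1) scale understates the change. LATS1, the other LATS kinase, went the opposite way, at 3.56 ± 0.425 FPKM in SK_N_SH_shNC and 5.35 ± 0.487 in SK_N_SH_shL5, and at 3.23 ± 0.0783 in SK_N_BE2_shL5 and 5.44 ± 0.589 in SK_N_BE2_shNC. LATS2 transcript thus exceeded LATS1 transcript in the high groups and lay below it in the low groups.

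Counted over the 10 genes, the comparison of the libraries labelled SK_N_SH_shL5 with SK_N_SH_shNC gave 8 lower, 0 higher and 2 that did not pass, TEAD2 and TEAD3. Of the 15856 genes tested in that comparison 39.0% passed as lower, 40.7% as higher and 79.8% in either direction, and 81.5% had groups that did not overlap, against 8 of the 10. In SK_N_BE2, all 10 were higher in the libraries labelled shL5 and none overlapped, where 39.9% of all genes passed as higher, 40.2% as lower and 80.0% in either direction and 81.4% had groups that did not overlap. Most genes passed in both comparisons, so that passing alone does not set the 10 genes apart. The median difference was -3.36 over the 10 genes and 0.02 over all genes in SK_N_SH, and 4.35 and -0.02 in SK_N_BE2. All genes went about equally in both directions, and regardless of direction the median size of a difference was 3.36 over the 10 genes and 0.64 over all genes in SK_N_SH, and 4.35 and 0.64 in SK_N_BE2. The difference between the 2 lines was tested as an interaction, and all 10 genes passed it with the SK_N_BE2 difference above the SK_N_SH difference, where 41.8% of all genes passed in that direction, 43.1% in the other and 84.9% in either. It ran from 0.62 for TEAD3 (SE 0.09, adjusted p = 3.60e-05) to 11.11 for CTGF on the log2(FPKM + 1) scale. That scale understates LATS2, which was near the detection limit in the low groups and stood at 8.41 here.

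**Figure D2:**
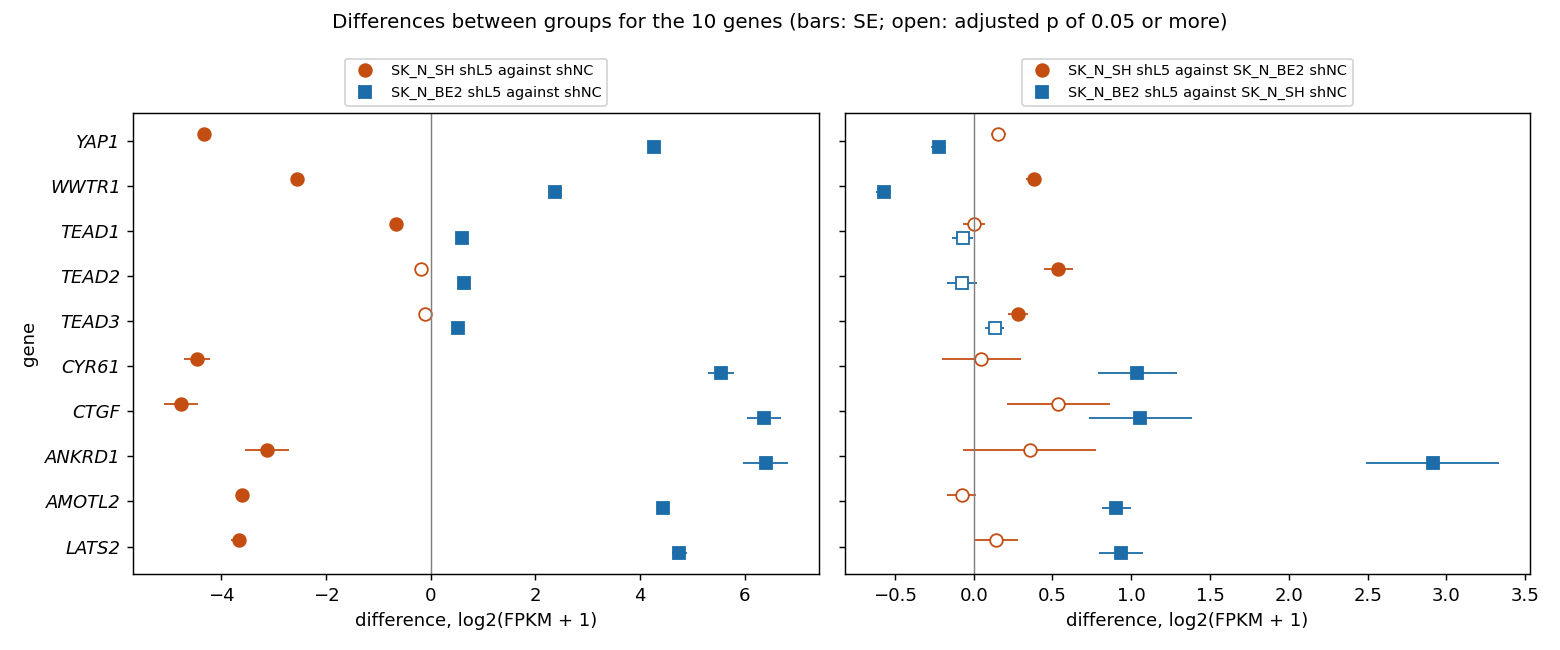
Differences on the log2(FPKM + 1) scale with their standard errors for the 10 genes in 4 comparisons of groups, in 2 panels with separate scales; filled points passed at an adjusted p under 0.05 and open points did not. In the knockdown comparisons the 2 lines lie on opposite sides of 0, from -4.76 (CTGF in SK_N_SH) to 6.39 (ANKRD1 in SK_N_BE2), while the comparisons across lines stay nearer to 0. The scale understates LATS2, which is near the detection limit in the low groups.

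The control groups also differed between the lines. All 10 genes were lower in SK_N_BE2_shNC than in SK_N_SH_shNC and none overlapped, where 38.9% of all genes passed as lower, 40.7% as higher and 79.6% in either direction, and 81.3% had groups that did not overlap. The median difference was -3.50 over the 10 genes and 0.02 over all genes. The folds ran from 1.38 for TEAD3, 1.62 for TEAD1 and 1.71 for TEAD2 to 92.2 for YAP1, 94.7 for CTGF and 353 for LATS2. WWTR1 was 14.1-fold, AMOTL2 18.6-fold, ANKRD1 20.8-fold and CYR61 28.0-fold lower. This comparison shares its control libraries with the knockdown comparisons.

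The 2 low groups were compared next. Of the 10 genes, 3 were higher in SK_N_SH_shL5 than in SK_N_BE2_shNC and 7 did not pass, while 2.26% of all genes passed as higher, 3.12% as lower and 5.39% in either direction. TEAD2 was 1.503-fold higher (log2 difference 0.54, SE 0.09, adjusted p = 0.00676), WWTR1 1.59-fold (0.38, SE 0.05, adjusted p = 0.00125) and TEAD3 1.27-fold (0.28, SE 0.06, adjusted p = 0.0241). The TEAD3 call did not hold when any of 5 of the 6 libraries of these groups was left out, when the fit held only these groups, when libraries were rescaled to equal sums or with the recovered reads (adjusted p = 0.0501 to 0.106). The genes that did not pass, which does not show that they were equal, were YAP1 (0.16, 1.49-fold, adjusted p = 0.0888), TEAD1 (0.00, adjusted p = 0.997), CYR61 (0.05, adjusted p = 0.970), CTGF (0.54, 2.03-fold, adjusted p = 0.434), ANKRD1 (0.36, 1.48-fold, adjusted p = 0.748), AMOTL2 (-0.08, adjusted p = 0.745) and LATS2 (0.14, adjusted p = 0.670). In the main fit all groups share a single estimate of the spread, and CTGF and ANKRD1 varied most in the high groups. When the fit held only these groups, the SE of CTGF was 0.08, against 0.32, and CTGF passed (limma, adjusted p = 0.0241). ANKRD1 passed under no alternative (limma, adjusted p of at least 0.203). With 42 and 11 reads in all, LATS2 was 3.82 times as high in SK_N_SH_shL5 (95% counting interval 1.93 to 8.23), a spread that a pseudocount of 1 compresses. With a pseudocount of 0.1, YAP1 (0.45, adjusted p = 0.0136) and LATS2 (0.84, adjusted p = 0.0339) passed as well, which made 5 of the 10. The libraries of the 2 groups did not overlap for 7 of the 10 genes, against 27.0% of all genes. YAP1 (means of 0.457 and 0.307 FPKM in SK_N_SH_shL5 and SK_N_BE2_shNC) and LATS2 (0.147 and 0.0387) are among the 7. Both are below 0.5 FPKM in these groups and passed the filter only through the high groups. Their calls with a pseudocount of 0.1 and their lack of overlap therefore rest on levels below the filter. The median size of a difference regardless of direction was 0.22 over the 10 genes and 0.09 over all genes.

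Between the 2 high groups, the targets and YAP1 and WWTR1 went in opposite directions. All 5 targets were higher in SK_N_BE2_shL5 than in SK_N_SH_shNC, while YAP1 and WWTR1 were lower. Of all genes 26.9% passed as higher and 17.2% as lower, 44.1% in all. The libraries of the 2 groups did not overlap for 7 of the 10 genes, against 51.0% of all genes. The median size of a difference regardless of direction was 0.74 over the 10 genes and 0.20 over all genes. ANKRD1 was 8.03-fold higher (log2 difference 2.91, SE 0.42, adjusted p = 2.83e-04), CYR61 and CTGF 2.11-fold (1.04 and 1.06), LATS2 2.01-fold (0.94, SE 0.14, adjusted p = 3.38e-04) and AMOTL2 1.90-fold (0.91, SE 0.09, adjusted p = 3.00e-05). YAP1 was 1.17-fold lower (-0.22, SE 0.05, adjusted p = 0.00295) and WWTR1 1.54-fold lower (-0.57, SE 0.05, adjusted p = 1.26e-05). TEAD1 (-0.07, adjusted p = 0.448), TEAD2 (-0.07, adjusted p = 0.562) and TEAD3 (0.13, adjusted p = 0.107) did not pass. The CTGF call (SE 0.32, adjusted p = 0.0211) was the weakest, and its libraries overlapped. It was lost without replicate 3 of SK_N_SH_shNC (adjusted p = 0.0848), without replicate 2 (0.0852) or 3 (0.0683) of SK_N_BE2_shL5, without the filter on low values (0.0561) and when the fit held only these groups (0.122). In that last fit CYR61 (SE 0.25, adjusted p = 0.00612) missed the threshold too (0.0553). Rescaling the libraries to equal sums moved the share of higher calls among all calls here from 60.9% to 39.6%, and the 7 calls among the 10 genes were made under both scalings.

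Per unit of YAP1 transcript, ANKRD1 also differed between the high groups. The ratio of ANKRD1 to YAP1 in FPKM was 1.002, 1.34 and 0.438 in the SK_N_SH_shNC libraries and 3.76, 12.1 and 10.02 in the SK_N_BE2_shL5 libraries. In the low groups it was 3.98, 4.95 and 3.36 for SK_N_SH_shL5 and 3.64, 5.40 and 3.08 for SK_N_BE2_shNC. The ratio was lowest in SK_N_SH_shNC, the group with the highest YAP1, and its 3 libraries lay below all 9 others. This was not particular to ANKRD1. For CYR61 the ratio was 3.21 to 5.51 in SK_N_SH_shNC and at least 7.17 in the 9 others. For AMOTL2 it was 0.833 to 1.07 and at least 1.98. CTGF and LATS2 did not show it. In the low groups the ratio divides by a YAP1 level of only 0.288 to 0.526 FPKM, from 30 to 52 reads per library. It also leaves out WWTR1, the more abundant transcript of the pair in those groups. A ratio to YAP1 and WWTR1 together was not examined, so the contrast with the low groups holds for YAP1 alone.

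CYR61, CTGF and ANKRD1 also varied between replicates of a high group, far beyond YAP1 and WWTR1. The coefficient of variation (SD as a percent of the mean) of ANKRD1 was 46.2% in SK_N_SH_shNC and 50% in SK_N_BE2_shL5, those of CTGF were 41.1% and 41.2%, and those of CYR61 24.9% and 33.4%. LATS2 stood at 12.02% and 23.4%, and AMOTL2 at 11.02% and 9.92%, the latter below TEAD2 in the same group (14.7%). YAP1 stood at 3.91% and 2.12%. The median over genes of at least 5 FPKM was 5.91% and 6.63% in these groups, and 0.290% and 0.178% of such genes, 7243 and 7319 in number, varied more than ANKRD1. Replicate 3 of SK_N_SH_shNC was the lowest of its group for all 5 targets (CYR61, CTGF, ANKRD1, AMOTL2 and LATS2) but for only 1 of YAP1, WWTR1 and the TEAD genes, namely TEAD3; 36.3% of all genes had their lowest value in that library. In SK_N_BE2_shL5 all 5 targets were lowest in replicate 1 and highest in replicate 2, as again was TEAD3 alone of the other 5 genes, and 21.7% of all genes showed this order, while 39.3% were lowest in replicate 1. Replicate 1 of SK_N_BE2_shL5 also stood apart across genes in general. Chi-square per gene between the reads of 2 libraries was 18.7 and 14.1 for replicate 1 against replicates 2 and 3. It was 5.14 between replicates 2 and 3 (15382 to 15453 genes). In SK_N_SH_shNC it was 9.29 and 7.52 for replicate 3 against replicates 1 and 2, and 10.9 between replicates 1 and 2. Whether this bears on the order of the targets was not tested. In SK_N_BE2_shL5 mitochondrial transcripts took 6.73%, 7.45% and 7.28% of the recovered reads in replicates 1, 2 and 3, in the same order as the targets, and in SK_N_SH_shNC 6.25%, 6.64% and 6.51%, where replicate 3 was not the lowest. Its part in the target levels was not tested. Among 16 other published YAP and TAZ targets, 7 were lowest in replicate 3 of SK_N_SH_shNC, a share near the 36.3% of all genes. Of the same 16, 9 had the order of the targets in SK_N_BE2_shL5, where 21.7% of all genes had it. Among these 9 was TGFB2 at 7.78, 28.95 and 25.1 FPKM, a growth factor named here after its values were seen.

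**Figure D3:**
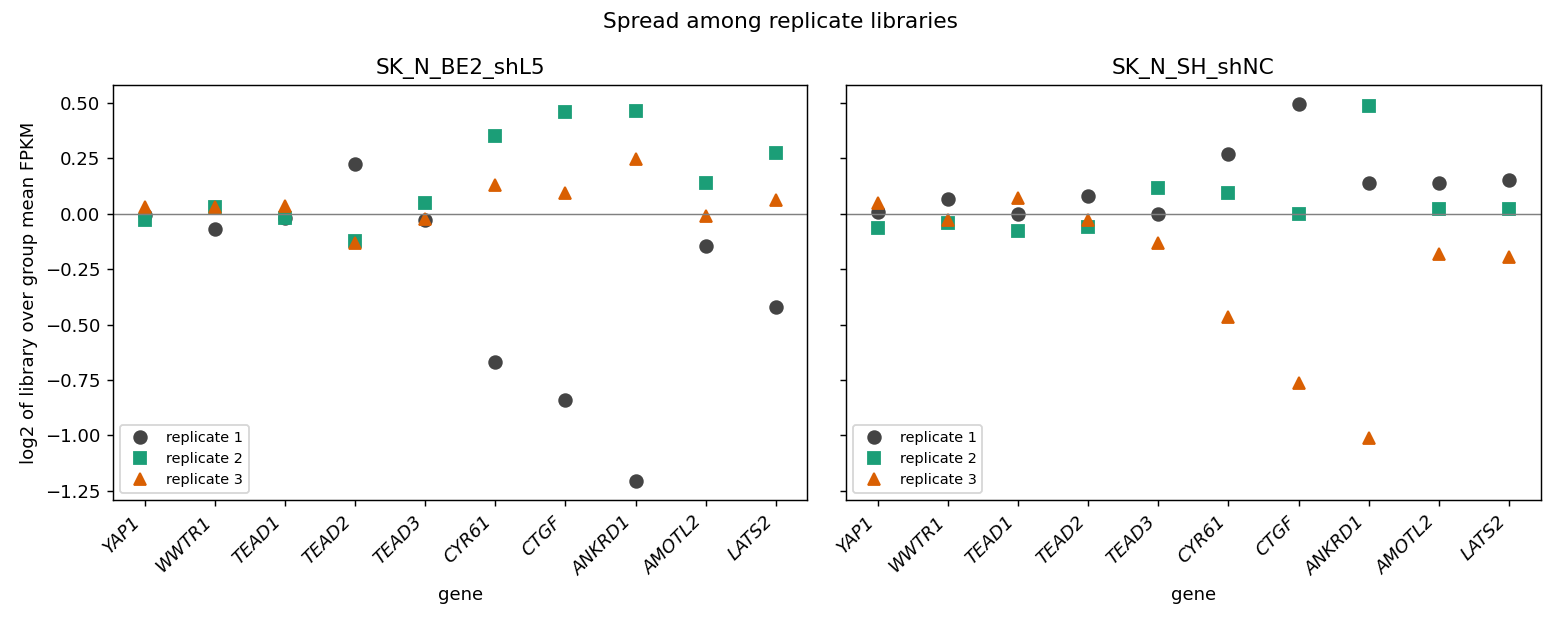
FPKM of each of the 10 genes in each replicate over its group mean, on a log2 scale, for SK_N_BE2_shL5 (left) and SK_N_SH_shNC (right), with 3 replicates per group. CYR61, CTGF and ANKRD1 fan out around 0, ANKRD1 by up to 3.18-fold between replicates, AMOTL2 spans 1.22-fold and TEAD2 1.28-fold in SK_N_BE2_shL5, and YAP1, WWTR1 and TEAD1 stay close to 0.

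The rest of the pathway was read from lists of genes. For every list count below, the share over all genes is 79.8% passed in SK_N_SH (39.0% lower and 40.7% higher) and 80.0% in SK_N_BE2 (40.2% lower and 39.9% higher), with medians of 0.02 and -0.02. Of 15 Hippo kinases and their activators, 9 were lower, 4 higher and 2 not passed in the libraries labelled SK_N_SH_shL5 against their control, with a median of -0.20. In SK_N_BE2 3 were lower, 9 higher and 3 not passed, with a median of 0.22, so that the share passed was near that of all genes in both lines, and under equal sums NF2, STK4 and TAOK2 of the 9 no longer passed. On the log2(FPKM + 1) scale FRMD6, an upstream activator of the cascade, had the largest difference of the list in both lines. It stood at 122 ± 5.68 FPKM in SK_N_SH_shNC and 13.3 ± 0.475 in SK_N_SH_shL5, and at 115 ± 9.99 in SK_N_BE2_shL5 and 9.99 ± 0.779 in SK_N_BE2_shNC (log2 differences of shL5 against shNC -3.10 and 3.40; pairs of values below are in this order, SK_N_SH and SK_N_BE2). The WW-domain scaffolds WWC3 (-2.25 and 2.31) and WWC1 (-0.97 and 1.49) went with it. By mean FPKM, WWC3 was 9.68-fold lower in SK_N_SH_shL5 than in its control, against 9.14-fold for FRMD6. MAP4K4, a kinase that can act on LATS, differed the opposite way (0.54 and -0.79), as did LATS1 (0.48 and -0.60). WWC2 was higher in SK_N_SH (0.46) and did not pass in SK_N_BE2 (0.03, adjusted p = 0.606), and TAOK3 was higher by 0.23 in SK_N_SH and lower in SK_N_BE2 (-0.40).

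The large cadherins that lie upstream of Hippo signalling were split. FAT4 and FAT1 were lower in the libraries labelled SK_N_SH_shL5 (-2.76 and -2.13) and higher in those labelled SK_N_BE2_shL5 (2.62 and 1.14). In mean FPKM the changes of FAT4 and FAT1 were 22.4-fold and 28.9-fold in SK_N_SH and 22.5-fold and 14.5-fold in SK_N_BE2. DCHS1, which binds FAT4 on neighbouring cells, went against them, at 2.05 ± 0.339 FPKM in SK_N_SH_shNC, 16.6 ± 0.398 in SK_N_SH_shL5, 0.945 ± 0.265 in SK_N_BE2_shL5 and 18.8 ± 0.856 in SK_N_BE2_shNC. DCHS2 was below the filter.

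The angiomotin family was divided as well. AMOT and AMOTL1, relatives of AMOTL2 that also bind YAP, were high where AMOTL2 was low. AMOT stood at 0.580 ± 0.127 FPKM in SK_N_SH_shNC and 9.12 ± 0.187 in SK_N_SH_shL5, and at 1.05 ± 0.234 in SK_N_BE2_shL5 and 7.02 ± 0.327 in SK_N_BE2_shNC. AMOTL1 stood at 10.2 ± 0.902, 32.1 ± 1.73, 8.22 ± 0.106 and 31.6 ± 1.199 FPKM in the same order of groups. The LIM proteins that bind LATS kinases, AJUBA (-2.25 and 3.12), WTIP (-2.01 and 2.28) and LIMD1 (-0.74 and 0.77), went with AMOTL2. WTIP averaged only 0.0591 FPKM in SK_N_SH_shL5 and 0.0501 in SK_N_BE2_shNC. Its log2(FPKM + 1) differences therefore understate changes in mean FPKM of 55.4-fold in SK_N_SH and 82.0-fold in SK_N_BE2. All 5 of these binding proteins passed in both lines, 2 higher and 3 lower in SK_N_SH and 3 higher and 2 lower in SK_N_BE2, where about 80.0% of all genes passed in each line.

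Of the TEAD cofactor list, TEAD4 and VGLL4, a competitor of YAP for TEAD, passed the filter, and VGLL1, VGLL2 and VGLL3 did not. TEAD4 was higher by 0.26 in SK_N_SH (SE 0.09, adjusted p = 0.0176) and did not pass in SK_N_BE2 (0.19, adjusted p = 0.0648). VGLL4 was lower in SK_N_SH (-0.59, adjusted p = 6.20e-06) and did not pass in SK_N_BE2 (0.11, adjusted p = 0.140).

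Of 17 further published YAP and TAZ targets 16 passed the filter, all but FOXF2. In SK_N_SH 12 were lower, 2 higher and 2 not passed in the libraries labelled shL5, with a median of -1.32, where 39.0% of all genes were lower, and in SK_N_BE2 13 were higher, 2 lower and 1 not passed, with a median of 2.12, where 39.9% of all genes were higher. The receptor kinase gene AXL stood at 61.1 ± 0.511 FPKM in SK_N_SH_shNC and 0.333 ± 0.0280 in SK_N_SH_shL5, and at 46.4 ± 2.56 in SK_N_BE2_shL5 and 0.226 ± 0.0438 in SK_N_BE2_shNC. MYOF, a membrane repair protein gene, differed by -5.14 and 5.65, CRIM1 by -4.94 and 6.20, and CCDC80 by -4.85 and 5.53. Against the rest of the list, RBMS3 was higher in SK_N_SH (1.02) and lower in SK_N_BE2 (-1.28). IGFBP3, a binding protein of insulin-like growth factors, was lower in SK_N_BE2 (-1.12) and did not pass in SK_N_SH (0.13, adjusted p = 0.618). FJX1 was higher in the shL5 libraries of both lines (0.25 and 0.39). Between the high groups 6 were higher, 2 lower and 8 not passed in SK_N_BE2_shL5 against SK_N_SH_shNC, with a median of 0.10, where 26.9% of all genes were higher, 17.2% lower and 44.1% passed in all.

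**Figure D4:**
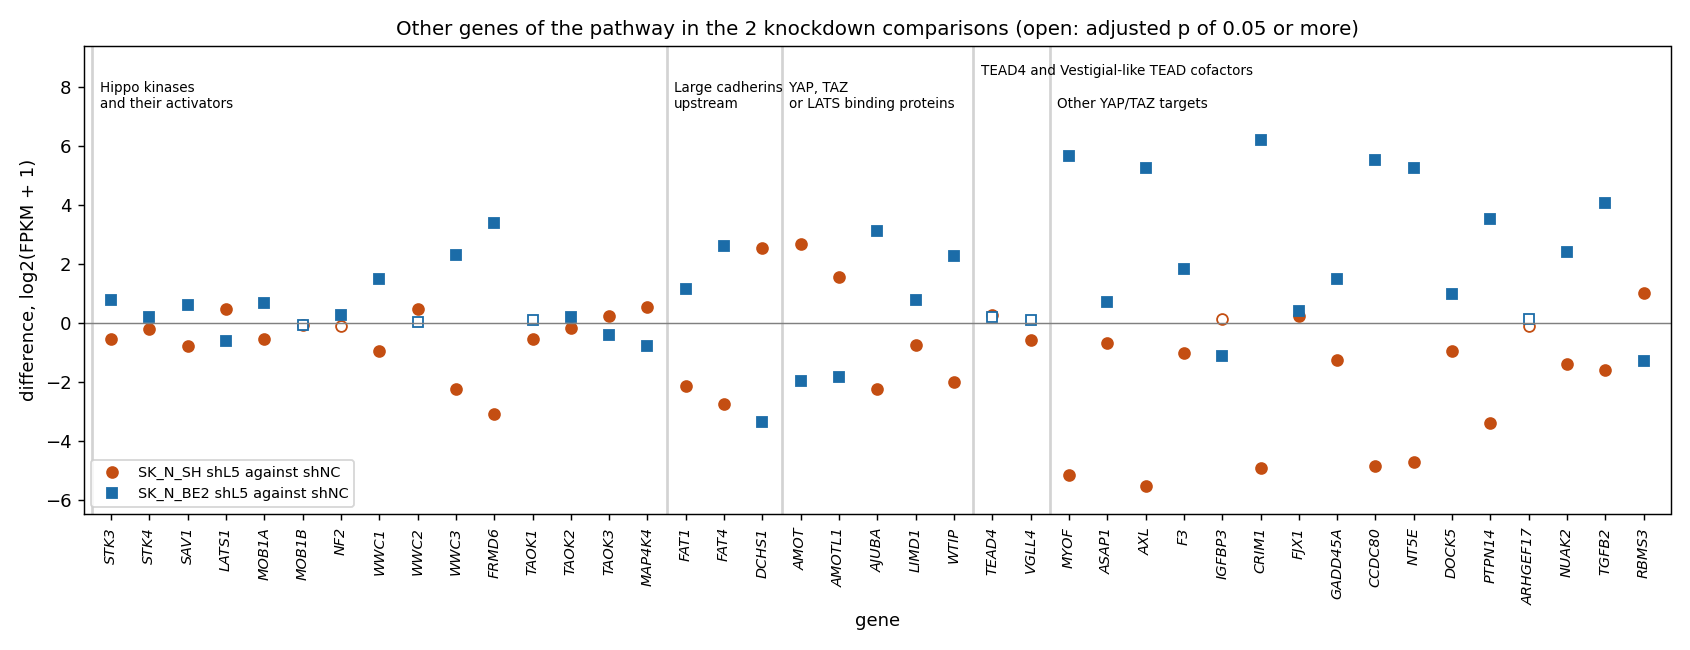
Differences between libraries labelled shL5 and shNC on the log2(FPKM + 1) scale for the other pathway genes tested, by list, in SK_N_SH (circles) and SK_N_BE2 (squares); open symbols did not pass. Most genes lie on opposite sides of 0 in the 2 lines, with AXL, MYOF and CRIM1 the most distant. LATS1, MAP4K4, TAOK3, DCHS1, AMOT, AMOTL1 and RBMS3 passed against the direction of their lists in both lines.

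Many genes shared the pattern of these levels over the 12 libraries, which fall into 2 sets, so that Pearson's r of log2(FPKM + 1) is given as a description. The genes most like YAP1 were CD109 (0.9997), NOTCH1 (0.9996) and AXL (0.9996), and 2812 genes had an r above 0.95 with it. Among those most like CTGF were CALD1 (0.998) and NEK7 (0.997), of 2718 above 0.95. Fewer were like ANKRD1, 1170, led by FILIP1L (0.997), AC009237.9 (0.997), ARID5A (0.997), FOXP4 (0.996) and RFX2 (0.996). FILIP1L showed the order of the 4 groups that ANKRD1 has, at 5.21 ± 1.10 FPKM in SK_N_SH_shNC, 1.23 ± 0.0436 in SK_N_SH_shL5, 14.7 ± 3.95 in SK_N_BE2_shL5 and 0.961 ± 0.0868 in SK_N_BE2_shNC. TEAD2 was followed by MCUB (0.952), CTDSPL (0.947) and TTC30A (0.947), and MCUB was the only gene above 0.95.

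Markers of cell state moved with these genes. The summed level of 7 noradrenergic neuroblast markers (PHOX2A, HAND2, GATA3, ISL1, DBH, TH and CHGA) ran from 82.5 to 95.7 FPKM in SK_N_SH_shNC and from 66.2 to 82.9 in SK_N_BE2_shL5, with TH at 0 in all 6 libraries. It ran from 1094 to 1181 FPKM in SK_N_SH_shL5 and from 1262 to 1308 in SK_N_BE2_shNC. The summed level of 8 mesenchymal markers (PRRX1, FN1, COL1A1, COL1A2, POSTN, TGFBI, SNAI2 and VIM) went the other way, from 2459 to 2835 and 2181 to 2620 FPKM in the groups with high YAP1 and from 116 to 123 and 103 to 110 in those with low YAP1. All 7 noradrenergic markers reached a mean of 1 FPKM in both low groups, and 6 did so in SK_N_SH_shNC and 3 in SK_N_BE2_shL5. Of the mesenchymal markers 7 did so in each high group and 5 in each low group. The part of cell state in the differences of the 10 genes was not tested. Markers of endothelial, blood, epithelial and Schwann cells summed to at most 0.195, 1.52, 1.03 and 2.29 FPKM in any library.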

How the data were processed

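RNA of 12 libraries (4 groups of 3) was sequenced after library preparation with a NEBNext Ultra RNA kit, per the labels' protocols. The submitters' processing notes name HISAT2 2.0.5, featureCounts 1.5.0-p3 and the build mm10. The start and end of all 58735 genes of the deposited table equal those of human GENCODE release 29 on GRCh38, so that build is used and the mm10 entry is not. No source used here says whether reads were counted by strand. Without strand, reads of a gene and of an antisense gene over it cannot be told apart. Such antisense neighbours were listed at no more than 1.92 FPKM, and the YAP1 pseudogenes at no more than 0.152 FPKM. Overlapping genes on the same strand were listed at no more than 4.01 FPKM, the value of MIR6827, which overlaps AMOTL2. The authors deposited FPKM values per gene and library. Multiplied by gene length, 100% of the values of each library were whole multiples of 1 step, within 0.05 reads, and this gave the reads. The authors' scaling was in proportion to size factors, not to library totals.

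Groups were taken from the titles, and 0 columns belonged to no sample. The 10 genes, the lists and the rule for named genes were chosen with earlier results of these data known. The rule names the 10 genes, TSPYL5 and TEAD4 whatever their result, up to 3 genes per list and direction with the largest difference among those past the threshold in a knockdown comparison, and the genes most like ANKRD1 (5), YAP1, TEAD2 and CTGF (3 each). Some genes that the rule or the lists take are not reported here. The test was limma 3.58.1 (R 4.3.3) on log2(FPKM + 1) (1 model of 4 group means over all 12 libraries, moderated with an intensity trend), run on 15856 genes with a mean of at least 0.5 FPKM. P-values are two-sided and adjusted by Benjamini-Hochberg over all genes of a comparison, with a threshold of 0.05. Folds are ratios of mean FPKM. Errors are SDs over 3 libraries for levels and SEs of the model for differences. The steps were tested on simulated data. Alternatives were the pseudocount, the filter, rescaling to equal sums, a fit of only the groups compared, the replicate number as a block, leaving out each library, and, chosen after seeing the data, limma's voom on the recovered reads. Promoter sequences are from RefSeq.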

Additional observations from a re-analysis of the deposited data

Results flagged for a closer look

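The difference between shL5 and shNC libraries was not the same in the 2 lines for any of the 10 genes, by the interaction term of the limma model. As the SK_N_BE2 difference minus the SK_N_SH difference on the log2(FPKM + 1) scale it was 8.59 for YAP1 and 4.92 for WWTR1, 1.27 for TEAD1, 0.82 for TEAD2 and 0.62 for TEAD3. It was 10.01 for CYR61, 11.11 for CTGF, 9.52 for ANKRD1, 8.03 for AMOTL2 and 8.41 for LATS2. All 10 values are positive. For TSPYL5 itself the same term was -1.33 (SE 0.07, adjusted p = 4.07e-09), with more TSPYL5 in the knockdown-labelled libraries of SK_N_SH and less in those of SK_N_BE2. Of all genes tested 84.9% passed this test in one direction or the other. The groups have 3 libraries each, so single libraries were not tested as outliers.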

How the results depend on the processing

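The direction and call of all 10 genes held under every alternative run for SK_N_BE2 shL5 against shNC, for the difference between lines and for the controls, and those of 8 of the 10 for SK_N_SH shL5 against shNC. There TEAD2 passed when libraries were rescaled to equal sums (adjusted p = 0.04996) and without replicate 3 of SK_N_SH_shL5 (0.0270), and TEAD3 without replicate 3 of SK_N_SH_shNC (0.0397). In SK_N_SH shL5 against SK_N_BE2 shNC, 5 of the 10 genes passed with a pseudocount of 0.1, YAP1 passed with 0.5 (adjusted p = 0.0341) and CTGF in the fit of these groups alone (0.0241). Small differences changed sign there: TEAD1 to -0.0189 under equal sums, -0.0581 without replicate 1 of SK_N_SH_shL5 and -0.0565 without replicate 2 of SK_N_BE2_shNC (0.0561 at the highest, without replicate 3 of SK_N_BE2_shNC), and CYR61 to -0.0698 without replicate 3 of SK_N_SH_shL5 and -0.0392 without replicate 3 of SK_N_BE2_shNC (0.1493 at the highest, without replicate 1 of SK_N_SH_shL5). The cause was not tested. Leaving out 1 library gave 474 to 638 genes in all for that comparison, against 854, and the fits then had fewer samples. TEAD3 passed between the high groups without replicate 2 of SK_N_SH_shNC (adjusted p = 0.0395). Leaving out 1 library gave 2 to 3 of the 10 genes between the low groups and 6 to 8 between the high groups. The replicate block changed no call among the 10 genes: 8 passed in SK_N_SH and 10 in SK_N_BE2, with 12569 and 12619 genes in all. Deviations of same-numbered libraries correlated at -0.0751 to 0.102 over the genes tested. That shows no strong pairing by number, though a pairing that touched few genes would be missed. A planned edgeR test was not run, since the file holds no counts, and voom on recovered reads took its place. Depth limits LATS2 in the low groups, where libraries held 2 to 18 reads.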
